A study of Mus musculus with 4 samples.

Results

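The genes described here are 7 genes of the thick ascending limb of the loop of Henle, the kidney segment that takes salt back from the tubular fluid: Slc12a1, Bsnd, Casr, Ptger3, Umod, Egf and Esrrb. They were taken by symbol and are 7 of the 21046 genes measured by droplet-based sequencing of RNA from single nuclei of mouse kidney cortex. The study sets endothelial knockdown of Klf4, a zinc-finger transcription factor, against a wild-type and a Nos3-deficient background, where Nos3 encodes endothelial nitric oxide synthase. The 4 libraries are labelled Klf4flox/flox (called the control), Klf4deltaEC, Nos3-/- and Klf4deltaECNos3-/-, all on C57BL/6J, with 1 library per genotype. The sources used here do not give age, sex, the Cre driver or the number of animals behind a library. Because no genotype has a second library, no test between genotypes was possible, and each difference is one between individual libraries. Throughout, 4 values in a row stand in the order control, Klf4deltaEC, Nos3-/- and Klf4deltaECNos3-/-.

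The thick ascending limb absorbs sodium, potassium and chloride through the apical cotransporter NKCC2, recycles potassium through an apical channel, and passes chloride to the blood side through chloride channels with their subunit barttin. The sodium pump drives this transport, and the lumen-positive voltage that results draws calcium and magnesium between the cells. The calcium-sensing receptor and the prostaglandin E2 receptor EP3 restrain it, and the same cells make uromodulin, the most abundant protein of normal urine.

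Levels are mean UMIs (unique molecular identifiers, 1 per captured RNA molecule) per 10000 UMIs of a nucleus, averaged by the authors over each of 23 numbered clusters in each library. Of 26144 inferred nuclei, 1451 of 6766, 1056 of 6883, 1049 of 7004 and 1368 of 5491 lay in clusters 2, 4 and 19, which are described first and whose nuclei-weighted mean is called the pool. All 9 thick ascending limb markers were detected in the pool of every library, summing to 347, 364, 211 and 328. Of these markers 3 are members, Slc12a1, Umod and Egf, which make up most of the sum, and the other 6 summed to 19.2, 29.3, 21.5 and 24.1. Of the 9, 8 had their highest cluster among clusters 2, 4 and 19 (Cldn10 had it in proximal tubule cluster 0). Bracketed ranges are 95% exact counting intervals, which leave out differences between nuclei, mice and preparations. The median nucleus of cluster 2 held 3314, 2386, 1663 and 3348 UMIs. The library labelled Nos3-/- stood apart: proximal tubule markers summed to 34.2, 47.0, 56.6 and 30.8 in the pool, connecting tubule markers to 3.01, 2.25, 15.6 and 2.03, and mitochondrially encoded genes to 60.4, 62.8, 27.1 and 59.3. Without mitochondrially encoded genes, 0 of the 35 pool ratios of the members changed sign or crossed the 2-fold limit, and the part of depth and of the other markers was not tested. In endothelial cluster 10, Klf4 stood at 0.621, 0.779, 0.445 and 0.824 and Nos3 at 1.26, 0.930, 1.52 and 2.07, so neither was lower where its label names a loss, and libraries are called by their labels.

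RefSeq promoter windows, from 250 bases before to 50 after a start site on build GRCm38.p6, were matched for 6 of the 7 genes (8 windows, with 2 each for Egf and Esrrb). The windows of Slc12a1 and Egf are shown because these are the members whose levels were most alike over clusters and libraries. That of Umod is shown because, outside the pool, its level was lower in Nos3-/- than in the control, while theirs were mostly higher. Each is printed 5′ to 3′ up to the annotated start of the gene or the RefSeq start, whichever comes first. Capitals mark the one searched motif found before a start, an HNF1 element.
Slc12a1, chr2:125152350-125152504, plus strand: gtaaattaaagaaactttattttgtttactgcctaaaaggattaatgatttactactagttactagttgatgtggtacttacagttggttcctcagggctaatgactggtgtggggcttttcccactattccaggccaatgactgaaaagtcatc
Egf, chr3:129755323-129755572, minus strand: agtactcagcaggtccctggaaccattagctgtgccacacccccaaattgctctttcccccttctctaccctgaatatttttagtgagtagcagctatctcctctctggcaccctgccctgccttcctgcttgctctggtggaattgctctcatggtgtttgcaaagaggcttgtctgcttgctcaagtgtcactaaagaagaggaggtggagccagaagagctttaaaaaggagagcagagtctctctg
Umod, chr7:119479283-119479512, minus strand: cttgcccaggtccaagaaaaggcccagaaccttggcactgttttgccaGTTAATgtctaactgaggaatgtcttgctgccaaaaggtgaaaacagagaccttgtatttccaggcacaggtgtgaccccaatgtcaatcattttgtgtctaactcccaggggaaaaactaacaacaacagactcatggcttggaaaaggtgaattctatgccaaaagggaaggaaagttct
Motifs were searched on both strands. The element GTTAAT, bound by the kidney factor HNF1, was found in the Umod window 202 bases before the RefSeq start, and in 7.10% of all 32851 windows. The Umod sequence above stops short of that start, at the annotated start of the gene. The AP-2 element GCCNNNGGC was found in 16.6% of windows and, among the members, only in that of Umod, as GCCAAGGGC in the 50 bases after the RefSeq start. None of the 8 windows held the TATA box TATAAA (13.6% of all), the oestrogen-related receptor element TCAAGGTCA (0.423%) or its core AAGGTCA, which lies within that element (4.72%). CpG dinucleotides in the 250 bases before the RefSeq start numbered 4 for Slc12a1, 0 for Umod, 15 and 0 for the pair of Egf windows, 1 for Casr, 21 for Ptger3, and 6 and 3 for the pair of Esrrb windows, against a median of 6 over all windows.

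Slc12a1 encodes NKCC2, the target of loop diuretics, and lies at chr2:125152505-125230002, plus strand (ENSMUSG00000027202.12, GENCODE M21, GRCm38). It stood in cluster 2 at 225, 225, 115 and 199, in cluster 4 at 204, 209.5, 107 and 209.6, and in cluster 19 at 163, 171, 99.0 and 182. The 3 clusters were thus near each other in each library, and the library labelled Nos3-/- was the lowest in all 3. Clusters ranked 2, 4, 19 and then 7 in 3 libraries, and 4, 2, 19 and 7 in the library labelled Klf4deltaECNos3-/-, with no neighbouring intervals overlapping. Cluster 7 followed at 48.3, 34.7, 27.3 and 43.6. Averaged over libraries, its proximal tubule markers summed to 143 and its thick ascending limb markers to 75.2. Its median nucleus held 9559, 7908, 4469 and 10753 UMIs, above that of cluster 2 in each library. Distal convoluted tubule cluster 9, with the related cotransporter gene Slc12a3 at 176 to 212, had Slc12a1 at 4.66 to 8.99.

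Bsnd encodes barttin, a subunit that chloride channels of the segment need at the membrane, and spans 8.83 kb on chromosome 4 (106483456 to 106492283, minus strand). It stood in cluster 2 at 0.665, 0.187, 0.645 and 0.507, in cluster 4 at 0.478, 0.685, 0.860 and 0.505, and in cluster 19 at 0.463, 0.504, 0.667 and 0.534. These are low levels, and the low value of cluster 2 in the library labelled Klf4deltaEC (0.117 to 0.284) rests on 21.7 effective UMIs, against 165 in the control. Bsnd was also the member least tied to these clusters. Intercalated cluster 16 had it at 0.978, 0.667, 1.95 and 1.05, and intercalated cluster 14 at 0.532, 0.539, 1.25 and 0.762, with intervals that overlapped those of neighbours in the order of levels.

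Casr encodes the calcium-sensing receptor, which senses blood calcium on the basolateral side, and lies at chr16:36493696-36562141, minus strand. It stood in cluster 2 at 2.25, 1.90, 1.90 and 1.08, in cluster 4 at 7.22, 7.83, 5.92 and 4.47, and in cluster 19 at 9.93, 8.68, 6.93 and 7.28. Cluster 4 exceeded cluster 2 in every library, by log2 1.59 to 1.99. Cluster 19 was first in all 4 libraries, though its interval overlapped that of cluster 4 in the libraries labelled Klf4deltaEC and Nos3-/-. Outside these clusters Casr was highest in cluster 14, which holds the chloride-bicarbonate exchanger gene Slc26a4 at 79.0 to 99.7, at 2.26, 3.03, 2.89 and 2.23.

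Ptger3 encodes EP3, a receptor that lowers cyclic AMP, and lies at chr3:157566892-157645888, plus strand. It stood in cluster 2 at 9.37, 17.4, 10.3 and 11.98, in cluster 4 at 7.24, 9.96, 8.56 and 13.2, and in cluster 19 at 2.30, 0.684, 1.51 and 1.78. Unlike Casr, cluster 19 was below clusters 2 and 4 in every library, by log2 -4.48 to -1.98 against cluster 2. Cluster 2 led, except that cluster 4 did so in Klf4deltaECNos3-/-. Levels in clusters 14 and 7 ranged from 1.64 to 2.38 and from 1.72 to 2.39. Cluster 19 was below both in every library but the control, and furthest below in the library labelled Klf4deltaEC. Only there was its interval clear of both, and in the other libraries it overlapped that of cluster 14.

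Umod encodes uromodulin and spans 16.6 kb on chromosome 7 (119462711 to 119479282, minus strand). Its level was 11.05, 10.7, 5.57 and 18.5 in cluster 2, 24.6, 34.6, 13.4 and 36.7 in cluster 4, and 15.1, 14.98, 7.96 and 19.8 in cluster 19. Cluster 4 was first and cluster 19 second in all 4 libraries (with an interval overlapping the third in the control and in Klf4deltaECNos3-/-), the library labelled Nos3-/- was lowest in all 3 clusters, and Klf4deltaECNos3-/- was highest in all 3. Cluster 12 came close: it had Umod at 11.6 (9.63 to 13.8), 8.35 (6.90 to 10.01), 2.84 (2.22 to 3.58) and 16.6 (14.1 to 19.5), which overlapped cluster 2 in the control and in the library labelled Klf4deltaECNos3-/-. Cluster 12 carries proximal tubule markers and held 782 to 1016 UMIs in its median nucleus.

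Egf encodes the precursor of epidermal growth factor, which acts further along the tubule on magnesium uptake, and lies at chr3:129677565-129755316, minus strand. It stood in cluster 2 at 53.1, 37.0, 43.5 and 41.3, in cluster 4 at 151, 158, 88.2 and 113, and in cluster 19 at 178, 154, 108 and 146. Clusters 4 and 19 were each more than 2-fold above cluster 2 in all 4 libraries, by log2 1.02 to 2.09 and 1.31 to 2.06. In 3 libraries distal convoluted tubule cluster 9 was above cluster 2 as well, with Egf at 75.4, 51.6, 35.4 and 75.8. The library labelled Nos3-/- was the exception to that order.

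Esrrb encodes an oestrogen-related receptor, an orphan nuclear receptor, and spans 161 kb on chromosome 12 (86361117 to 86521628, plus strand). Its level was 12.01, 20.3, 13.02 and 9.33 in cluster 2, 9.85, 13.96, 10.6 and 8.86 in cluster 4, and 2.78, 2.99, 2.97 and 2.98 in cluster 19. Like Ptger3, it was below clusters 2 and 4 in cluster 19 of every library, by log2 -2.72 to -1.62 against cluster 2. Distal convoluted tubule cluster 9 held it at 11.1, 8.86, 10.5 and 8.78. The interval of cluster 2 overlapped that of cluster 9 in the control, and those of clusters 4 and 9 in the library labelled Klf4deltaECNos3-/-. The interval of cluster 4 overlapped that of cluster 9 in the libraries labelled Nos3-/- and Klf4deltaECNos3-/-.

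**Figure D1:**
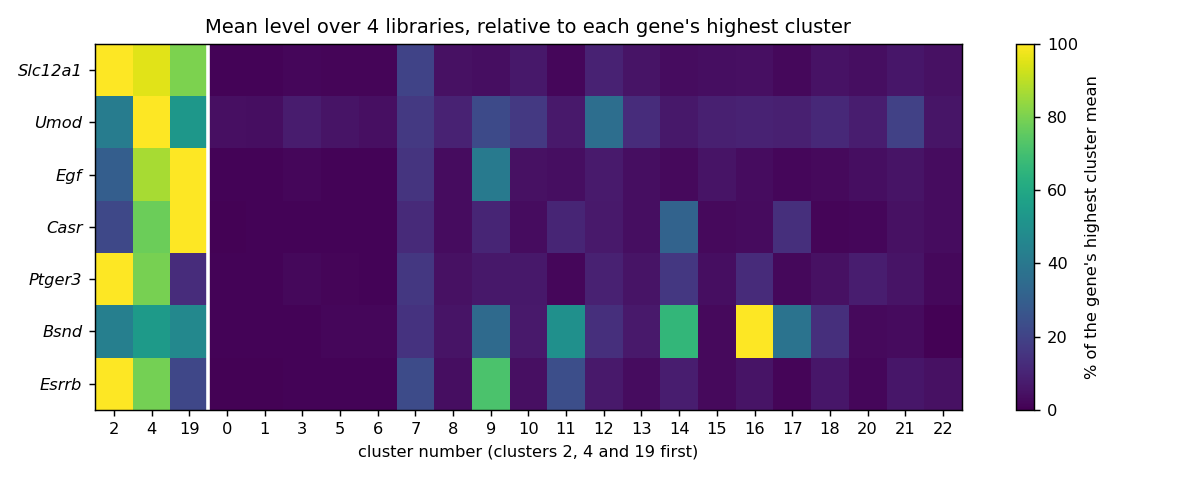
Mean level of each of the 7 genes over the 4 libraries (rows) in each of the 23 clusters (columns, clusters 2, 4 and 19 first), as a percentage of the gene's highest cluster mean. Slc12a1, Umod, Egf, Casr, Ptger3 and Esrrb have their highest mean in cluster 2, 4 or 19, Esrrb is also high in cluster 9, and Bsnd has its highest mean, 1.16 per 10000, in cluster 16.

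Slc12a1 differed between the 3 clusters by at most log2 0.47 in any library, and Bsnd had no steady order among them. In each library Casr and Egf were higher in clusters 4 and 19 than in cluster 2, and Ptger3 and Esrrb were lower in cluster 19 than in clusters 2 and 4. Of all genes that reached 0.5 per 10000, 0.927% were 2-fold higher in cluster 4 than in cluster 2 in all 4 libraries, and Egf and Casr were among them. For cluster 19 against cluster 2, 3.58% were 2-fold higher in all 4, again with Egf and Casr, and 2.24% were 2-fold lower, with Ptger3 and Esrrb. For cluster 19 against cluster 4 the share 2-fold lower was 1.05%, with the same pair, and the share 2-fold higher was 1.23%, with no member. The clusters were made by the authors from the same nuclei, so these differences are descriptions. Among genes of the macula densa, the plaque at the end of the segment that senses tubular salt, Nos1 stood in cluster 19 at 1.52, 1.96, 3.13 and 3.18 and at no more than 0.0366 in clusters 2 and 4. Robo2 stood in cluster 19 at 10.4, 18.9, 9.25 and 18.5 and Pappa2 at 1.43, 1.03, 0.510 and 1.84, while Ptgs2 was between 0 and 0.367. Of the 10 genes of this list, only 3 or 4 reached 0.5 per 10000 in cluster 19, depending on the pair of libraries compared.

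**Figure D2:**
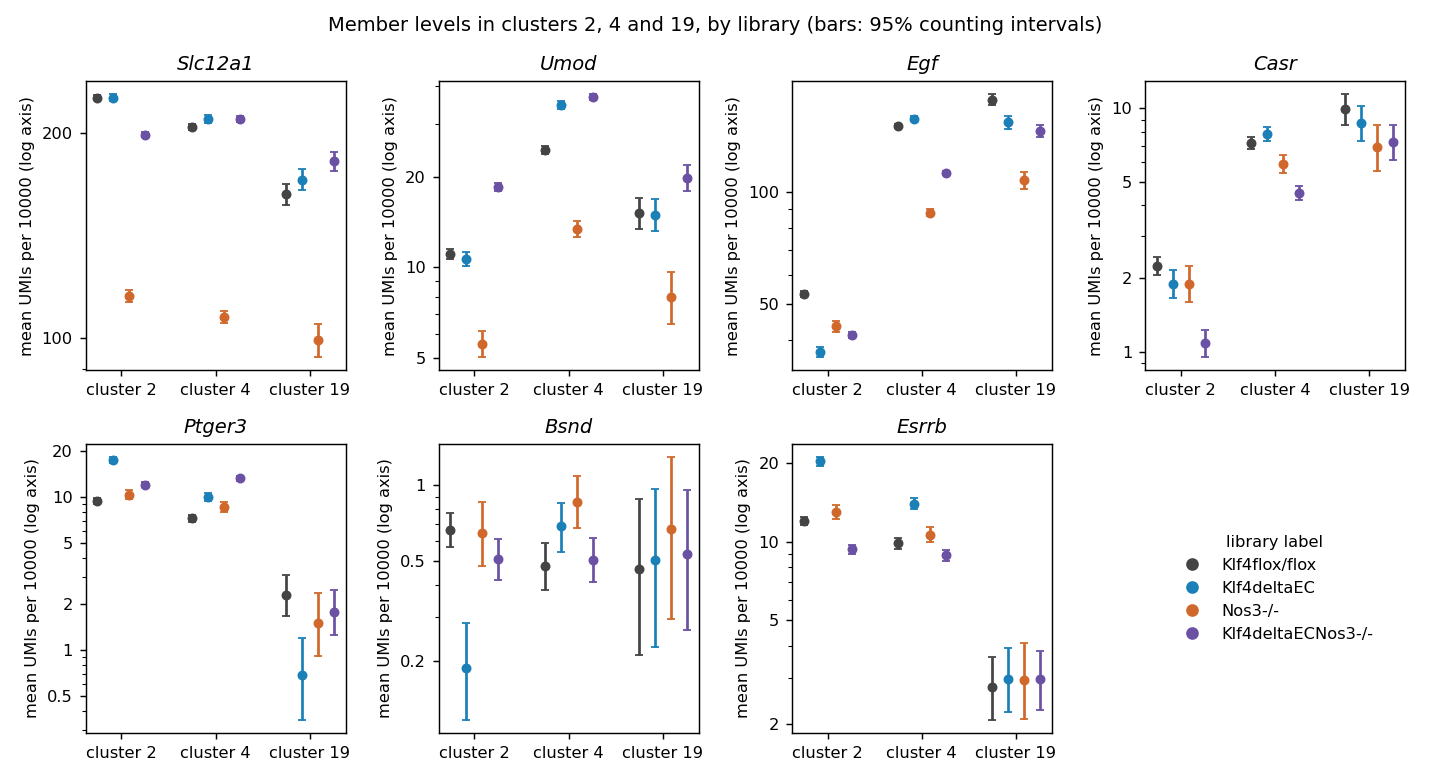
Level of each gene in mean UMIs per 10000 (log axis, one panel per gene) in clusters 2, 4 and 19, with a point for each library and bars for the 95% counting interval. Slc12a1 and Umod are lowest in the library labelled Nos3-/- in all 3 clusters, Casr and Egf are higher in clusters 4 and 19 than in cluster 2, and Ptger3 and Esrrb are lowest in cluster 19.

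Libraries were compared by the log2 ratio of (level + 0.1) in the pool, where a ratio of at least 1 or at most -1 is called 2-fold. All 7 members reached the minimum of 0.5 per 10000 in each comparison. For the library labelled Klf4deltaEC over the control, 0 of the 7 were 2-fold different, against 1.71% of the 3909 genes compared, and the members' median was 0.13 against -0.05 for all genes. Ptger3 stood in the pool at 8.21, 13.04, 8.89 and 12.1, a ratio of 0.66 (0.60 to 0.74) in this comparison. Esrrb stood at 10.7, 16.4, 11.2 and 8.89, a ratio of 0.60 (0.55 to 0.67), so that the library labelled Klf4deltaEC was the highest for both genes. Umod stood at 16.5, 21.7, 9.64 and 26.0, a ratio of 0.39 (0.34 to 0.45), with 0.49 in cluster 4 and -0.05 in cluster 2. Slc12a1, at 214.1, 214.8, 110.2 and 202.6, had a ratio of 0.01 (-0.01 to 0.02). Egf and Casr had ratios of 0.02 and 0.13, and with the 3 clusters weighted equally these were -0.13 and -0.07. Cluster 2, which is low in both, held 817 of the 1451 control nuclei and 516 of 1056 in the library labelled Klf4deltaEC. Over the 20 other clusters the median ratio was -0.69 for Slc12a1, with 3 above 0, and -0.43 for Egf, with 5 above 0. For the other members that median lay between -0.12 and 0.04.

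Within single clusters the same comparison gave a pair of 2-fold differences among the members. Bsnd in cluster 2 was lower in the library labelled Klf4deltaEC, with a log2 ratio of -1.41 (-2.55 to -1.18), where 2.11% of genes were 2-fold lower. In cluster 4, however, Bsnd had a ratio of 0.44 (0.06 to 0.98). Ptger3 in cluster 19 was lower, with a ratio of -1.61 (-2.81 to -0.80) from 11.8 and 44.3 effective UMIs, where 5.34% of genes were 2-fold lower. In cluster 2 it was higher instead, with a ratio of 0.89 (0.81 to 0.98). Esrrb was higher in cluster 2 by 0.75 (0.68 to 0.83) and in cluster 4 by 0.50 (0.40 to 0.60), and Egf was lower in cluster 2 by a log2 ratio of -0.52 (-0.57 to -0.47).

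For the library labelled Nos3-/- over the control, 0 of the 7 members were 2-fold different in the pool, where 9.18% of genes were. Slc12a1 was the member furthest from the control, with a ratio of -0.96 (-0.98 to -0.94). Umod followed with -0.77 (-0.86 to -0.70), and Egf, at 97.1, 98.6, 69.9 and 74.8 in the pool, with -0.47 (-0.50 to -0.45). The receptor and nuclear receptor genes stood near the control, with ratios of -0.11 (-0.23 to 0.02) for Casr, 0.11 (0.03 to 0.20) for Ptger3 and 0.06 (-0.02 to 0.14) for Esrrb. Bsnd, at 0.583, 0.431, 0.754 and 0.507 in the pool, had a ratio of 0.32 (0.06 to 0.68). The members' median was -0.11 against 0.05 for all genes.

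Outside the pool, the library labelled Nos3-/- stood higher than the control for 5 of these genes. Over the 20 other clusters, the median ratio to the control was 0.27 for Slc12a1, 0.80 for Egf, 0.61 for Casr, 0.74 for Ptger3 and 0.77 for Esrrb, with 15 or 16 clusters above 0 for each. For Slc12a1 and Egf this was the side opposite to the pool, and so it was for Casr, whose pool ratio of -0.11 had an interval that spanned 0. Bsnd had a median of -0.05 with 7 of 20 above 0, against 0.32 in the pool. Its median level in those 20 clusters was 0.080 in the control and 0.048 in Nos3-/-. Both are below the pseudocount of 0.1, which holds such ratios near 0. Umod had a median of -0.86 and 0 of 20 clusters above 0, close to its ratio of -0.77 in the pool. With this median subtracted, the pool ratio became -1.23 for Slc12a1, -1.28 for Egf, -0.63 for Ptger3, -0.71 for Esrrb and 0.09 for Umod.

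**Figure D3:**
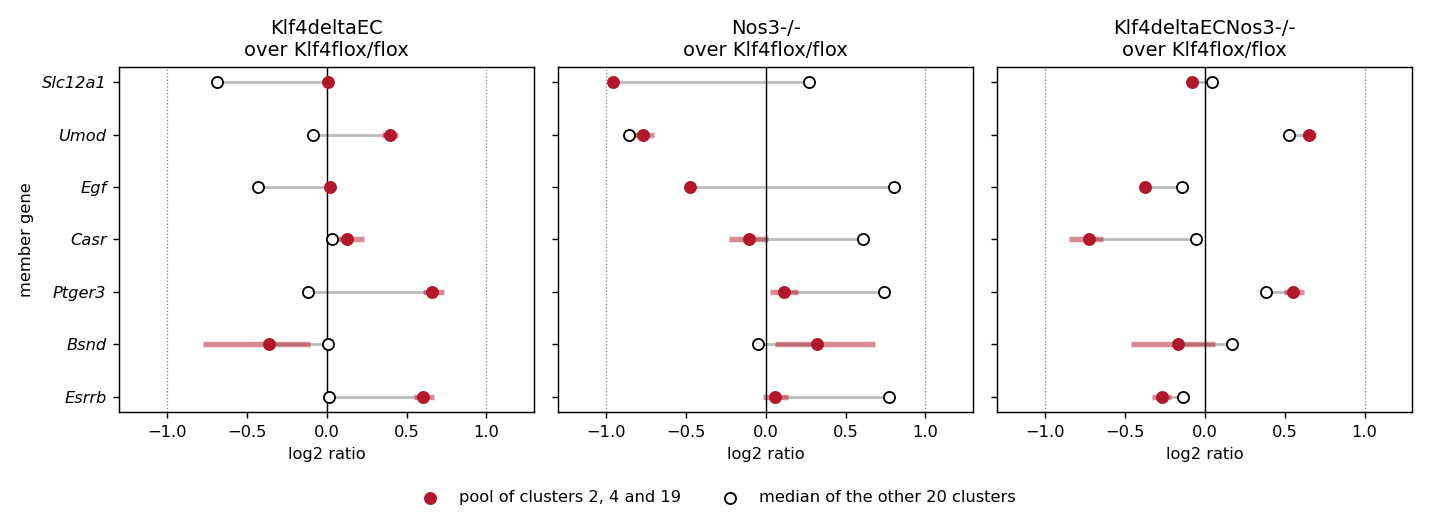
Log2 ratio of each gene to the control for the libraries labelled Klf4deltaEC, Nos3-/- and Klf4deltaECNos3-/-, in the pool of clusters 2, 4 and 19 and as the median over the other 20 clusters. For Nos3-/- the pool and the other clusters lie on opposite sides of 0 for Slc12a1 (-0.96 and 0.27), Egf (-0.47 and 0.80), Casr (-0.11 and 0.61) and Bsnd (0.32 and -0.05). They lie on the same side for Umod (-0.77 and -0.86), Ptger3 and Esrrb. Bsnd levels in the other clusters had medians of 0.080 in the control and 0.048 in Nos3-/-, below the pseudocount of 0.1.

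Levels in clusters 0, 1, 3, 5 and 6, which carry markers of the proximal tubule, a segment that makes neither NKCC2 nor uromodulin, were read the same way. The median Slc12a1 level over these 5 clusters was 1.84, 1.07, 4.94 and 1.86, or 0.860%, 0.497%, 4.48% and 0.921% of the pool. The library labelled Nos3-/- also had the highest such share for Egf (1.05%, 0.763%, 4.64% and 1.19%), Casr (0.542%, 0.336%, 5.51% and 0.583%), Ptger3 (3.07%) and Esrrb (2.43%), and the lowest for Bsnd (1.99%, 4.32%, 1.48% and 3.00%). The Bsnd shares rest on median levels of only 0.0116, 0.0186, 0.0111 and 0.0152. That of Nos3-/- is below the level equal to 3 counts in each of these clusters (0.0133 to 0.0297). The level of Umod in these clusters was 1.12, 1.09, 0.703 and 1.72, lowest in the library labelled Nos3-/-. Its share of the pool was 6.79%, 5.00%, 7.29% and 6.61%, above that of Slc12a1 in all 4 libraries and again highest in Nos3-/-, by a smaller margin.

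The ratio of Umod to Slc12a1 within a cluster shows the same difference. In the pool it was 0.0772, 0.101, 0.0874 and 0.128. In the 5 proximal tubule clusters it lay between 0.609 and 0.703 (control), 0.933 and 1.08 (Klf4deltaEC), 0.142 and 0.172 (Nos3-/-), and 0.864 and 1.16 (Klf4deltaECNos3-/-), above the pool in every cluster. Cluster 12 gave 0.493, 0.614, 0.175 and 0.830. The ratio of Egf to Slc12a1 differed less, at 0.453, 0.459, 0.634 and 0.369 in the pool and between 0.452 and 0.793 in the 5 clusters over all libraries. Between clusters of a library the Umod ratio was thus alike in the proximal tubule clusters, and between libraries it was lowest in Nos3-/-, where mitochondrially encoded genes were also lowest. Their relation was not tested.

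**Figure D4:**
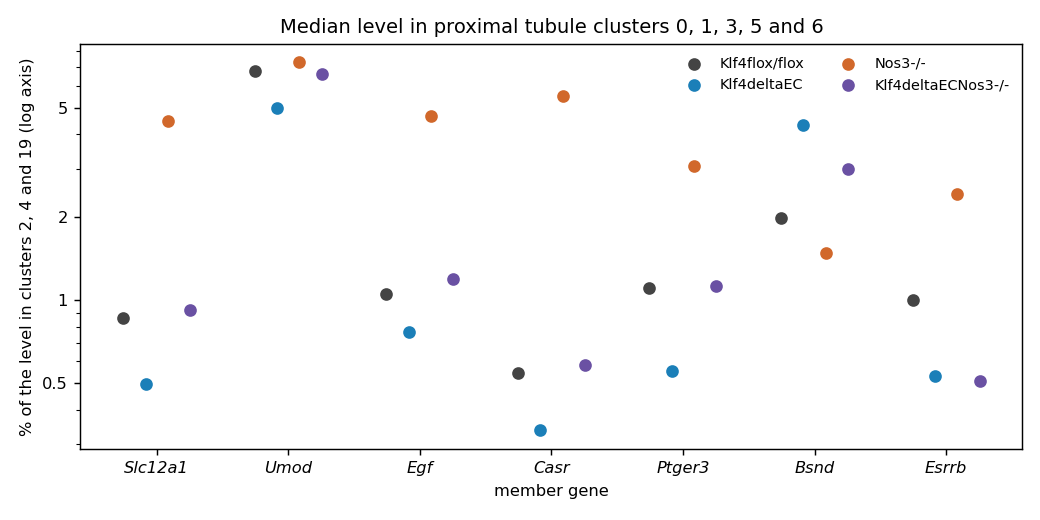
Median level of each gene over proximal tubule clusters 0, 1, 3, 5 and 6 as a percentage (log axis) of its level in the pool of clusters 2, 4 and 19, with a point for each library. The share is highest in the library labelled Nos3-/- for Slc12a1 (4.48%), Egf (4.64%), Casr (5.51%), Ptger3 (3.07%), Esrrb (2.43%) and Umod (7.29%, with the other libraries at 5.00% to 6.79%), and lowest for Bsnd (1.48%). The Bsnd shares rest on median levels of only 0.0111 to 0.0186, and that of Nos3-/- is below the level equal to 3 counts.

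For the library labelled Klf4deltaECNos3-/- over the control, 0 of the 7 members were 2-fold different in the pool, where 0.846% of genes were (18 higher and 16 lower, or 16 and 23 after median-ratio rescaling). Casr stood at 4.55, 4.98, 4.22 and 2.72, a ratio of -0.72 (-0.85 to -0.64). It was lowest in the library labelled Klf4deltaECNos3-/- in clusters 2 and 4, with ratios of -0.99 (-1.28 to -0.84) and -0.68 (-0.82 to -0.57), and in cluster 19 its ratio was -0.44 (-0.77 to -0.13). Umod had a ratio of 0.65 (0.61 to 0.70) in the pool, with a median of 0.52 and 18 of 20 above 0 in the other clusters. Ptger3 had a ratio of 0.55 (0.50 to 0.62), and its other clusters gave 0.38 and also 18 of 20 above 0. Egf had a ratio of -0.37 (-0.40 to -0.35), Esrrb -0.27 (-0.33 to -0.21) and Slc12a1 -0.08 (-0.09 to -0.07). Bsnd had a ratio of -0.17 (-0.46 to 0.06), which spans 0, and the members' median was -0.17 against 0.08 for all genes.

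The library labelled Klf4deltaECNos3-/- was also set against Nos3-/-, a library that is the numerator of an earlier comparison. Here 1 of the 7 members was 2-fold different, Umod, where 9.91% of genes were (3.45% higher). Its ratio was 1.42 (1.36 to 1.51) in the pool, 1.71 (1.58 to 1.88) in cluster 2, 1.45 (1.36 to 1.55) in cluster 4 and 1.303 (0.99 to 1.64) in cluster 19. In these clusters 4.03%, 3.52% and 8.94% of genes were 2-fold higher. The other 20 clusters gave a median of 1.54 for Umod with 20 of 20 above 0, and the pool ratio minus that median was -0.11. Slc12a1 had a ratio of 0.88 (0.86 to 0.90) in the pool. Its median was -0.10 over the other 20 clusters, with 9 of 20 above 0, and -1.42 in the 5 proximal tubule clusters among them. Casr (-0.62, -0.77 to -0.50), Bsnd (-0.49, -0.89 to -0.25) and Esrrb (-0.33, -0.41 to -0.25) were lower in Klf4deltaECNos3-/-, and Ptger3 (0.44, 0.36 to 0.53) and Egf (0.10, 0.07 to 0.13) were higher. The members' median was 0.10 against 0.04 for all genes.

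Against the library labelled Klf4deltaEC, 0 of the 7 members were 2-fold different in the pool of Klf4deltaECNos3-/-, where 0.987% of genes were (8 higher and 32 lower, or 5 and 49 after median-ratio rescaling, a shift of log2 0.12 here). Esrrb and Casr were furthest apart, with ratios of -0.87 (-0.95 to -0.82) and -0.85 (-0.99 to -0.76). In cluster 2 Esrrb was 2-fold lower, with -1.11 (-1.20 to -1.03), as were 1.43% of genes, and Bsnd was 2-fold higher, with 1.08 (0.77 to 2.18), as were 1.28%. In cluster 19 Ptger3 was 2-fold higher, with 1.26 (0.40 to 2.46), as were 6.27% of genes. In these clusters the library labelled Klf4deltaEC was the lowest of the 4 for Bsnd and Ptger3 and the highest for Esrrb. The remaining pool ratios were -0.40 (-0.42 to -0.37) for Egf, 0.26 (0.21 to 0.31) for Umod, 0.19 (-0.10 to 0.58) for Bsnd, -0.11 (-0.17 to -0.05) for Ptger3 and -0.08 (-0.10 to -0.07) for Slc12a1. Over the 20 other clusters the median ratios were 0.62 for Slc12a1, 0.72 for Umod, 0.52 for Ptger3, 0.27 for Egf and 0.10 for Bsnd. They were -0.01 for Casr and -0.03 for Esrrb. The members' median was -0.11 against 0.13 for all genes.

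Each label is read from a pair of comparisons that share no library, Klf4deltaEC over control with Klf4deltaECNos3-/- over Nos3-/- for Klf4, and Nos3-/- over control with Klf4deltaECNos3-/- over Klf4deltaEC for Nos3. No member was 2-fold different the same way in both comparisons of either label. Over all genes this held for 15 of 3763 genes for the Klf4 label and 11 of 3704 for the Nos3 label, and none of them was in the lists described next.

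Other genes of the same transport were read from lists, in the pool. Of all genes, 1.23% were 2-fold higher for Klf4deltaEC over the control, 6.68% were 2-fold higher and 2.50% lower for Nos3-/- over the control, 6.46% were 2-fold lower for Klf4deltaECNos3-/- over Nos3-/- and 0.790% for Klf4deltaECNos3-/- over Klf4deltaEC. Of the transport machinery around NKCC2, 0 of 11 genes were 2-fold different for Klf4deltaEC over the control (median 0.12) and 0 of 11 for Klf4deltaECNos3-/- over the control (0.04). For Nos3-/- over the control 1 of 13 was higher, the potassium channel gene Kcnma1, with a list median of 0.08, a share near that of all genes. Atp1b1, a subunit gene of the sodium pump, stood at 16.9, 17.7, 11.4 and 16.98. The pump regulator gene Fxyd2 stood at 9.78, 11.2, 7.94 and 10.0. Slc9a3, a sodium-hydrogen exchanger gene, stood at 6.93, 12.5, 4.67 and 5.59, highest in the library labelled Klf4deltaEC, and was 2-fold lower in Klf4deltaECNos3-/- than there. Like Slc12a1, all 3 of these were lowest in the library labelled Nos3-/-. The list as a whole did not go that way, as 7 of its 13 genes had ratios above 0 for Nos3-/- over the control.

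Among kinases and trafficking regulators of NKCC2, 14 genes were compared and 1 was 2-fold different in any of the comparisons, Cab39l, an activator of the kinase SPAK, which was higher in Klf4deltaEC than in the control. The SPAK gene itself, Stk39, stood at 10.1, 12.1, 9.04 and 10.7. Among claudins and genes of divalent cation transport, 6 of 6 had ratios above 0 for Klf4deltaEC over the control (median 0.33), with 0 at 2-fold. Tmem207 stood at 3.72, 5.49, 2.02 and 4.26, and was 2-fold higher in Klf4deltaECNos3-/- than in Nos3-/-. Of 12 hormone receptor and cyclic AMP genes, 2 were 2-fold higher in Nos3-/- than in the control (against 6.68% of all genes), the parathyroid hormone receptor gene Pth1r and the phosphodiesterase gene Pde4d, and both were 2-fold lower in Klf4deltaECNos3-/- than in Nos3-/-. Pde4d stood at 8.83, 10.4, 26.3 and 9.86.

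Of 14 transcription factor genes of the segment, 1 was 2-fold higher for Klf4deltaEC over the control, Sim1 (1.23% of all genes), and 1 was 2-fold lower for Nos3-/- over the control (2.50%), Ppargc1a, a coactivator of the oestrogen-related receptors, at 24.8, 24.6, 12.1 and 17.9. Esrrg, the sister gene of Esrrb, stood at 56.4, 60.2, 60.9 and 60.7, with little difference between libraries. Of 9 genes of the EGF family and its receptors, 1 was 2-fold lower in Nos3-/- than in the control, the receptor gene Erbb4 at 129 against 64.5, and 1 was higher, Trpm6, the magnesium channel gene of the distal convoluted tubule, at 0.177 against 1.01. Slc12a3, which belongs to that next segment, stood in the pool at 0.716, 0.879, 3.80 and 0.552. Of 10 mitochondrially encoded genes, 7 were 2-fold lower in Nos3-/- than in the control, with a median of -1.15, and 8 were 2-fold higher in Klf4deltaECNos3-/- than in Nos3-/-, with a median of 1.10.

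Likeness of pattern was read as Pearson's r of log2(level + 0.1) over all 92 columns, which share 4 libraries and their depth, among 7728 genes, so it is a description. The most alike genes were Erbb4, Tmem207 and Tenm2 for Slc12a1 (0.92, 0.92 and 0.91) and Ppp1r1a, Erbb4 and Stk32b for Egf (0.90, 0.89 and 0.89). For Umod they were Wfdc15b, Fxyd2 and Ckb (0.86, 0.84 and 0.83), and for Casr Tmem72, Gcgr and Etnk1 (0.86, 0.85 and 0.83). Ptger3 was most like Slc12a1, Slc2a13 and Kcnt1 (0.86, 0.85 and 0.84), and Esrrb most like Ppp1r1a, Fads6 and Lrrc66 (0.93, 0.90 and 0.90). For Bsnd, Efhd1 and Gcgr were among them (0.86 and 0.84). Between members r ran from 0.44, for Bsnd with Umod and with Slc12a1, to 0.89 for Slc12a1 with Egf.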

How the data were processed

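Nuclear RNA of kidney cortex was measured in 4 libraries on the 10X platform. The submitters' processing notes name the tools Cell Ranger and Seurat and build mm10, without versions. The authors deposited a normalized signal averaged per cluster and library, and each of its 92 columns sums to 10000. The clustering is theirs, and the sources used here do not give the filters on nuclei and doublets. Nuclei barcodes were not analysed here. All columns were matched to libraries by title, and 0 were left over.

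Nuclei numbers and UMI totals were inferred from the reciprocals of low values, as the largest number dividing at least 85% of them within a relative tolerance of 3e-14 (lowest share 92.3%, highest for the double 64.1%). Effective UMIs then gave exact Poisson intervals for levels and exact binomial (Clopper-Pearson) intervals for ratios without the pseudocount, and the level equal to 3 counts in the pool was 0.00675, 0.0120, 0.0176 and 0.00685. These intervals treat nuclei of a cluster as alike. Library ratios used a pseudocount of 0.1, which understates low genes, and a minimum of 0.5 in the higher library. The steps were tested on simulated columns.

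Clusters were named from marker lists; proximal tubule clusters 0, 1, 3, 5 and 6 leave out cluster 12 for its low depth. The members, lists and this choice were made with earlier results of these data known. Named genes are the members, the 3 most alike to each, and list genes with the highest pool means; others, such as those 2-fold different, were added after their values were seen. A few genes that this rule names are not reported here. Alternatives were pseudocounts of 0.5 and 0.02, a minimum of 2 or none, median-ratio rescaling, removal of mitochondrially encoded genes, other pools, and subtraction of the median of other clusters. Python 3.11.15, numpy 2.4.6, pandas 2.3.3, scipy 1.17.1 and matplotlib 3.10.9 were used, with GENCODE M21 annotation.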

Additional observations from a re-analysis of the deposited data

Results flagged for a closer look

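The following 4 genes had pool ratios on opposite sides of 0 in the pair of comparisons for one label, with both counting intervals clear of 0; with 1 library per genotype the difference itself was not tested. For the Nos3 label, Umod had a log2 ratio of -0.77 for Nos3-/- over control and 0.26 for Klf4deltaECNos3-/- over Klf4deltaEC, a difference of 1.03, and the same signs in all 3 clusters. Ptger3 had 0.11 and -0.11 in the same pair, a difference of -0.22, but 0.14 and -0.54 in cluster 2, 0.24 and 0.40 in cluster 4, and -0.57 and 1.26 in cluster 19. For the Klf4 label, Esrrb had 0.60 for Klf4deltaEC over control and -0.33 for Klf4deltaECNos3-/- over Nos3-/-, a difference of -0.93, with the same signs in clusters 2 and 4, and in cluster 19 both intervals spanned 0. Casr had 0.13 and -0.62 in the same pair, a difference of -0.75, and its first value was -0.07 with the 3 clusters weighted equally. No single cluster gave Casr opposite signs with both intervals clear of 0: the pair was -0.23 and -0.76 in cluster 2, 0.12 and -0.40 in cluster 4, and -0.19 and 0.07 in cluster 19. With the median of the other clusters subtracted, none of the 4 kept its signs: the pairs became 0.09 and -0.46 for Umod, -0.63 and -0.63 for Ptger3, 0.59 and 0.40 for Esrrb, and 0.09 and 0.05 for Casr.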

How the results depend on the processing

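Counts of genes at 2-fold in the pool, in the order of the report's comparisons, were 67, 378, 34, 428 and 40. Without a minimum they were 102, 621, 48, 739 and 70, with a minimum of 2 they were 26, 120, 14, 121 and 18, and with a pseudocount of 0.5 they were 16, 183, 12, 208 and 14. A pseudocount of 0.02 gave 54 for Klf4deltaECNos3-/- over control and 65 over Klf4deltaEC. With the median of the other clusters subtracted, members at 2-fold became 2 for Nos3-/- over control and 0 for Klf4deltaECNos3-/- over Nos3-/-, where Umod went from 1.42 to -0.11. That subtraction changed the sign of 7 of 35 pool ratios of the members, and weighting clusters equally that of 2 of 35. No paired analysis was possible because each genotype has 1 library. Depth limits Bsnd, and Ptger3 in cluster 19.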
